A study of Mus musculus with 4 samples.

Results

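The oligoadenylate synthetase genes were examined in bone marrow derived macrophages (BMMs) exposed to dimethyl itaconate (DI) during RANKL stimulation. The genes were chosen by name, with earlier results of these data known. All 8 (Oasl1, Oasl2, Oas1a, Oas1b, Oas1c, Oas1g, Oas2 and Oas3) were found among the 34745 genes of the deposited table. Such cells are cultured from marrow in the growth factor M-CSF, and RANKL is the cytokine that turns them into osteoclasts, the cells that resorb bone. DI is a membrane permeable derivative of itaconate, a metabolite that activated macrophages make. The cells came from wild type male C57BL/6 mice aged 8 weeks, and were kept without serum for 12 h. The RANKL+DI group (2 libraries) then received RANKL at 100 ng/mL and DI for 24 h, and the RANKL+Veh group (2 libraries) received the same RANKL with DMSO, the vehicle. The sample labels give the dose of DI as 20 mM, whereas the methods of the study give 20 μM. Both groups received RANKL, so cells without RANKL were not compared here. Whether the libraries came from separate mice or cultures is not given in the sources used here, and the p-values below therefore measure only the spread between these libraries.

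Oligoadenylate synthetases are antiviral enzymes. When they bind double-stranded RNA they join ATP into short chains linked from the 2′ to the 5′ carbon, called 2-5A, a messenger that leads to the decay of viral and cellular RNA. Their genes are classical interferon-stimulated genes: interferon signals through a complex called ISGF3, of which STAT2 and IRF9 are parts and which binds a DNA element built on repeats of GAAA in their promoters. The mouse family includes active synthetases (Oas1a, Oas1g, Oas2, Oas3 and Oasl2) and relatives without synthetase activity, among them Oasl1, which represses translation of the Irf7 mRNA, and Oas1c. In C57BL/6 mice Oas1b carries a premature stop codon that leaves the strain sensitive to flaviviruses, and the GENCODE M21 annotation lists it as a polymorphic pseudogene.

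The genes lie in 2 clusters on chromosome 5 (GRCm38). Oasl2 (ENSMUSG00000029561, chr5:114896936-114912234) and Oasl1 (ENSMUSG00000041827, chr5:114923240-114937915) lie beside each other on the plus strand and span 41.0 kb. The Oas1, Oas2 and Oas3 members span 177 kb and begin 5.79 Mb further along the chromosome. In order they are Oas2 (ENSMUSG00000032690, chr5:120730333-120749853), Oas3 (ENSMUSG00000032661, chr5:120753098-120777661), Oas1c (ENSMUSG00000001166, chr5:120800194-120812514), Oas1b (ENSMUSG00000029605, chr5:120812635-120824163), Oas1g (ENSMUSG00000066861, chr5:120876142-120887613) and Oas1a (ENSMUSG00000052776, chr5:120896256-120907521). Oas1b is on the plus strand and the other 5 of this cluster are on the minus strand. The starts of Oas1b and Oas1c face away from each other across 120 bases.

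RefSeq promoter sequences (GRCm38.p6, from 250 bases before to 50 bases after the start) were at hand for 6 of the 8 members, and not for Oas1b and Oas2. They were searched for the core of the interferon element (GAAA, any 2 bases, GAAA) on both strands, and overlapping matches were counted. It was found in the windows of Oas1a, Oas1g, Oas1c and Oas3, and these letters are not in the windows of Oasl1 and Oasl2. Among the 27025 genes with a promoter window in the table, 3.99% held the core. Of the 32851 windows, 3.44% did. The stretch before each start is shown on the strand of its gene for the 4 members with a match, with the matched bases in capitals. They are given for Oas1a (chr5:120907526-120907625, minus strand), Oas1g (chr5:120887614-120887713, minus strand), Oas3 (chr5:120777662-120777761, minus strand), and Oas1c (chr5:120812515-120812634, minus strand), where they are the whole stretch up to the start of Oas1b.
Oas1a: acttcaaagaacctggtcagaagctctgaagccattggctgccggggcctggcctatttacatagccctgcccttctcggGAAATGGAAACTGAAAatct
Oas1g: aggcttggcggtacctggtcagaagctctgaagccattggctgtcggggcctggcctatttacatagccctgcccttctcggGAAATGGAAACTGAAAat
Oas3: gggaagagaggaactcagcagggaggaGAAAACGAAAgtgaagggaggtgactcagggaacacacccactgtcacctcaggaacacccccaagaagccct
Oas1c: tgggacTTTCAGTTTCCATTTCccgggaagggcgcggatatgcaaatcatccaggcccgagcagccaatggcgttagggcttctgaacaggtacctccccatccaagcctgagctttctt
In Oas1a and Oas1g a pair of overlapping cores ended 5 and 3 bases before the RefSeq start. For Oas1a that start, where the stretch shown ends, lies a few bases ahead of the GENCODE start. The window of Oas1c held the same letters on the opposite strand. There they lay 99 to 114 bases before the start of Oas1c but only 7 bases before the start of Oas1b. A run of 19 bases (cgggaaatggaaactgaaa) was shared by the windows of Oas1a, Oas1g and, on the other strand, Oas1c, and by the windows of only these 3 genes in the table. Oas3 had a single core 66 to 75 bases before its RefSeq start, which lies 2 bases beyond the end of the stretch shown, since that stretch stops at the GENCODE start. A match of letters is a description of the sequence and not evidence that a factor binds there.

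**Figure D1:**
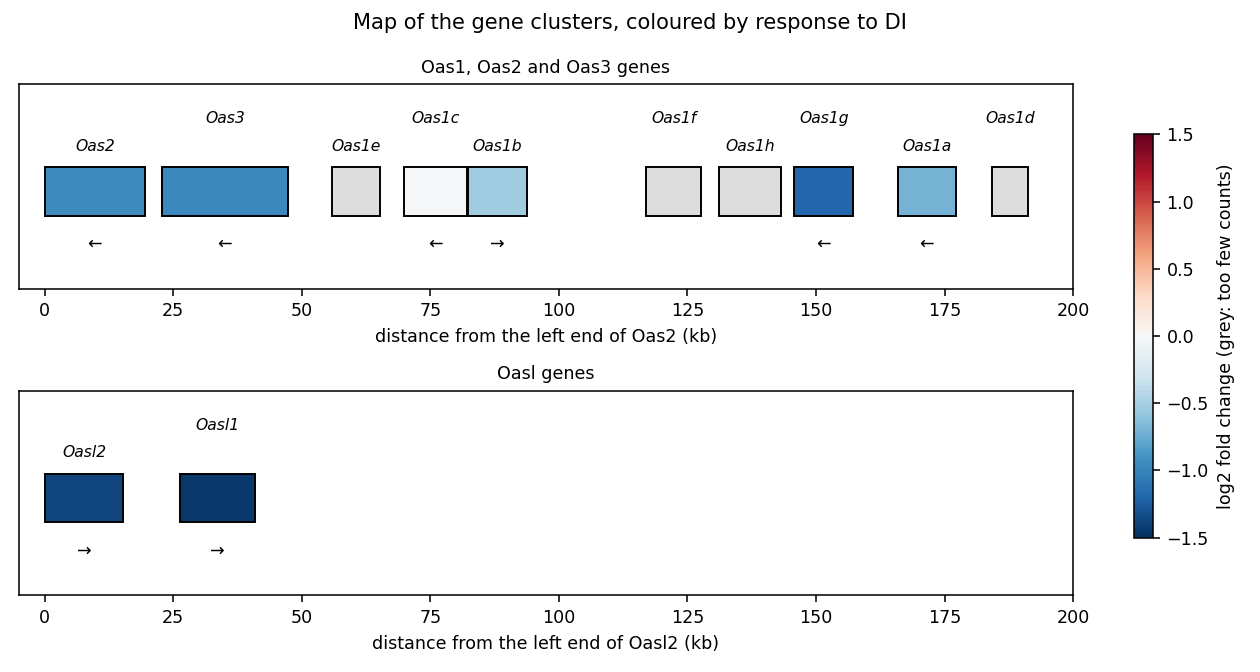
Map of the Oas1, Oas2 and Oas3 cluster (above) and the Oasl cluster (below), with distance in kb on the x axis, arrows for the strand of each member and colour for the log2 fold change of RANKL+DI over RANKL+Veh. The 4 grey genes had too few counts to test, and Oas1c (near white) and Oas1b (pale blue) lie back to back.

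The depth was 16085692 to 19403480 counts per library, and 12590 genes passed the filter on low counts and entered the quasi-likelihood test of edgeR. Levels are given as CPM, the usual read count normalised to the depth of the library, here with TMM factors, and p-values were adjusted over all tested genes. Markers of the labelled cell type were abundant. The 8 macrophage markers summed to 23125 and 22261 CPM with vehicle and to 28443 and 29258 CPM with DI, and most of the sum was Lyz2, at 18289 and 17630 CPM with vehicle and 22772 and 23786 CPM with DI. Of the 8, 5 were called higher (Lyz2, Itgam, Mertk, Cd68 and Adgre1), 2 were called lower (Fcgr1 and Cd14) and Csf1r was not called. Over all 12590 tested genes, 899 were called higher and 969 (7.70%) lower. Markers of B cells (6 genes) and of T and NK cells (7 genes) summed to at most 1.6 CPM in any library, those of T and NK cells with no overlap between the groups and higher with DI. Of 7 markers of plasmacytoid dendritic cells, which are strong interferon producers, Siglech, Ly6d and Klk1 had no count and only Tcf4 reached 1 CPM. Neutrophil markers (7 genes) summed to 5.91 to 8.68 CPM and stromal markers (6 genes) to 40.7 to 50.01 CPM, with no overlap between the groups in either list. Neutrophil markers were higher with DI, and stromal markers were higher with vehicle. Groups without overlap are common here. Of the 12590 tested genes, 3722 had both DI libraries below both vehicle libraries, and 3650 had both above. None of the tested markers of T and NK cells (2 genes), neutrophils (2 genes) and stromal cells (4 genes) was called. The part of other cells in the results below was not tested. In a bulk sample, fewer cells that express a gene and less RNA per cell cannot be told apart.

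With DI, 6 of the 8 oligoadenylate synthetase genes fell with an edgeR adjusted p under 0.05, namely Oasl1, Oasl2, Oas1g, Oas3, Oas2 and Oas1a. Over all tested genes, 7.70% were called lower. The remaining members were Oas1b and Oas1c, and both had passed the filter, so no member was left out. In 7 of the 8 members both DI libraries lay below both vehicle libraries, which held for 29.6% of all tested genes. The summed level of the 8 genes was 412 and 409 CPM with vehicle and 217 and 189 CPM with DI. The median log2 fold change of the members was -0.96, against 0.0012 for all tested genes.

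**Figure D2:**
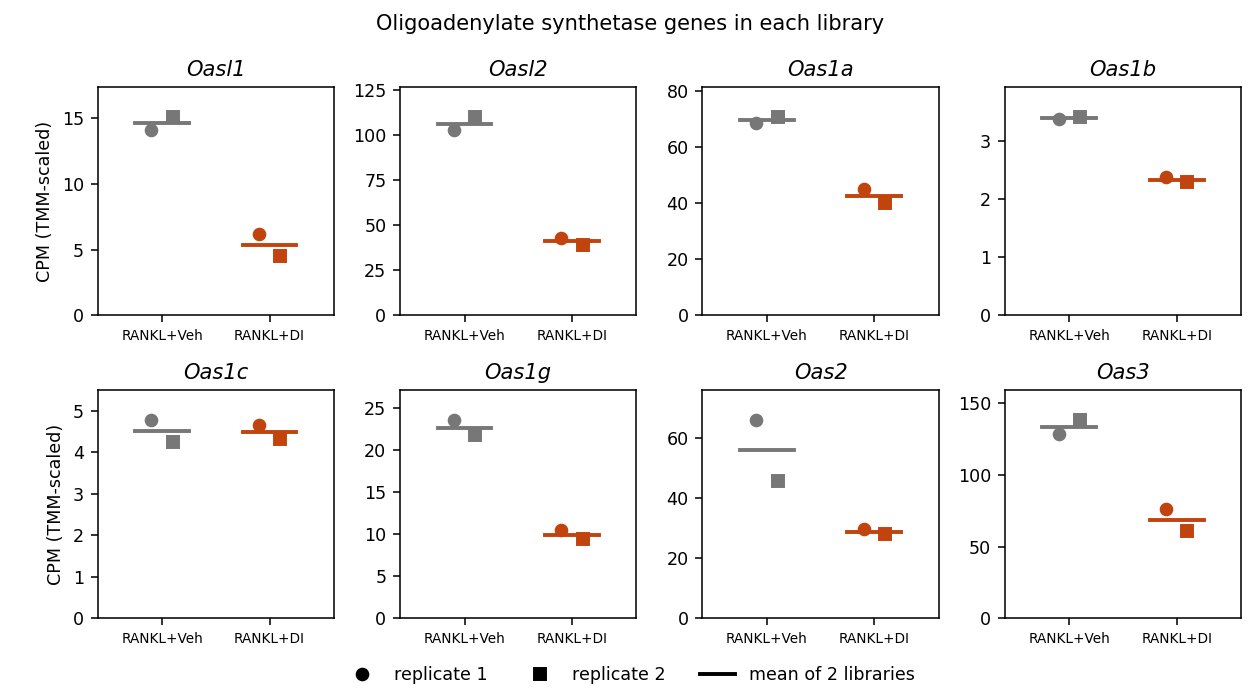
TMM-scaled CPM (y axis, from 0) of each member in each library, with circles for replicate 1, squares for replicate 2 and a line for the mean of 2 libraries per group. The groups are apart in 7 panels and overlap for Oas1c, and the vehicle libraries of Oas2 differ most.

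The Oasl genes had the steepest decreases. Oasl1 stood at 14.1 and 15.1 CPM with vehicle and at 6.18 and 4.53 CPM with DI. Both DI libraries were thus under the lower vehicle library by a wide margin, on 85 to 263 counts. Its log2 fold change was -1.45 (standard error, SE, 0.17, edgeR adjusted p = 0.00442), a level 63.4% lower with DI. Oasl2, an active synthetase with a ubiquitin-like tail, stood at 103 and 110 CPM with vehicle and at 42.7 and 39.3 CPM with DI. Libraries of a group were close to each other, and the log2 fold change was -1.38 (SE 0.071, edgeR adjusted p = 5.15e-04). By the size of its p-value Oasl2 ranked 32 among the 12590 tested genes, and 0.707% of them had a lower log2 fold change. The ratio of Oasl1 to Oasl2 counts was 0.137 in each vehicle library and 0.145 and 0.115 in the DI libraries, so the groups overlapped in it. Oasl1 overlaps the antisense gene Gm13822 over 1.46% of its exon bases, a gene with at most 2 counts in a library.

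Oas2 and Oas3 encode the larger synthetases, with more than one copy of the synthetase unit. Oas3 had the most counts of the family. It stood at 129 and 138 CPM with vehicle and at 76.0 and 60.8 CPM with DI, with no overlap between the groups. Its log2 fold change was -0.96 (SE 0.11, edgeR adjusted p = 0.00408). Oas2 stood at 65.8 and 45.7 CPM with vehicle and at 29.5 and 27.9 CPM with DI. The vehicle libraries of Oas2 were far apart, and the lower of them was still above both DI libraries. Its log2 fold change was -0.96 (SE 0.17, edgeR adjusted p = 0.0168). Leaving out vehicle replicate 1 gave -0.67, and leaving out vehicle replicate 2 gave -1.19.

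Oas1a and Oas1g encode the active small synthetases. Oas1a stood at 68.6 and 70.7 CPM with vehicle and at 45.1 and 39.9 CPM with DI. Oas1g was lower in every library, at 23.5 and 21.7 CPM with vehicle and at 10.5 and 9.39 CPM with DI. For both genes the groups were clearly apart. The log2 fold change was -0.71 for Oas1a (SE 0.078, edgeR adjusted p = 0.00382) and -1.19 for Oas1g (SE 0.11, edgeR adjusted p = 0.00240). Their longest coding transcripts are 97.5% identical over 1860 aligned bases, and 57.6% of the 50-base words of Oas1a and 45.7% of those of Oas1g also occur in another gene. How reads that match both were divided is not given in the sources used here, so the level of each is uncertain. Summed as 1 gene, they stood at 92.1 and 92.5 CPM with vehicle and at 55.6 and 49.3 CPM with DI, with a log2 fold change of -0.82 (SE 0.073, edgeR adjusted p = 0.00222). The count of Oas1g relative to Oas1a was 0.343 and 0.307 with vehicle and 0.233 and 0.235 with DI. The groups did not overlap in this ratio, and the exact two-sided permutation test gave p = 0.333, the smallest that 2 libraries against 2 allow.

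Oas1b and Oas1c, whose starts lie back to back across the 120 bases shown above, had the smallest differences. Oas1c stood at 4.78 and 4.26 CPM with vehicle and at 4.66 and 4.32 CPM with DI. Its groups overlapped, and the log2 fold change was -0.01 with a 95% interval of -0.41 to 0.39 (adjusted p = 0.972, edgeR). Oas1b stood at 3.38 and 3.42 CPM with vehicle and at 2.39 and 2.29 CPM with DI, on 41 to 63 counts. Its groups did not overlap, but the log2 fold change of -0.54 (SE 0.195) did not pass the threshold (unadjusted p = 0.0328, adjusted p = 0.127, edgeR). The ratio of Oas1b to Oas1c counts was 0.708 and 0.803 with vehicle and 0.513 and 0.531 with DI. These ratios did not overlap between the groups either. The exact two-sided permutation test gave p = 0.333, which any ratio without overlap gives with 2 libraries against 2, so it adds nothing to the separation. Exons of Oas1c overlap the antisense gene Gm43069 over 9.44% of their bases, and Gm43069 had at most 2 counts in a library. Of the 50-base words of Oas1c, 15.1% also occur in another gene, Oas1d, Oas1e, Oas1f and Oas1h among them, against 2.98% for Oas1b.

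The fitted log2 fold changes of the members ran from -1.45 (Oasl1) to -0.01 (Oas1c). Of the 28 pairs of members, 11 had 95% intervals of the log2 fold change that did not overlap. The interval of Oas1c was apart from those of all 6 members that fell. The interval of Oas1a (-0.90 to -0.52) was apart from those of Oas1g (-1.46 to -0.92), Oasl2 (-1.55 to -1.20) and Oasl1 (-1.86 to -1.04). Those of Oasl1 and Oasl2 were also apart from that of Oas1b (-1.02 to -0.062). Intervals of Oas2, Oas3, Oas1g, Oasl1 and Oasl2 all overlapped with each other. These genes share libraries, and apart from permutation tests of ratios no difference between genes was tested. Such tests were also run for Oasl1 to Oasl2 and for Oas2 to Oas3, whose ratios overlapped between the groups. The ratio of Oas2 to Oas3 counts was 0.511 and 0.331 with vehicle and 0.389 and 0.460 with DI. The levels of Oas1a and Oas1g are uncertain, as said above, and so is the contrast between them.

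**Figure D3:**
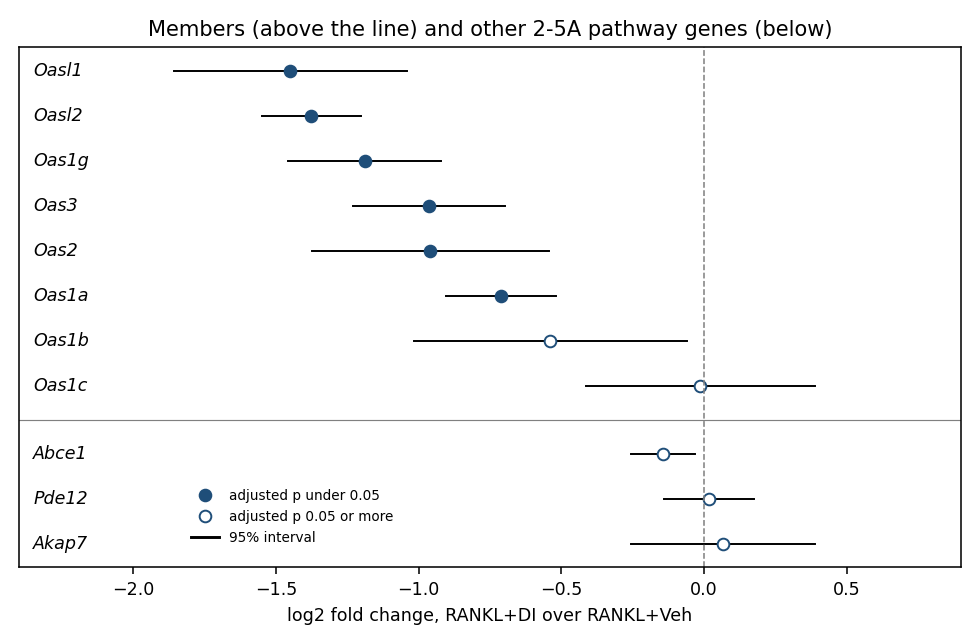
Log2 fold change of RANKL+DI over RANKL+Veh (x axis) with 95% intervals, for the 8 members above the line and the 3 tested genes of the 2-5A pathway below it, filled where the adjusted p was under 0.05. Oasl1 and Oasl2 lie furthest to the left, and the intervals of Oas1c, Pde12 and Akap7 span 0.

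The make-up of the family shifted with these unequal decreases. Oasl2 took 24.97% and 26.9% of the counts of the family (TMM-scaled CPM) with vehicle and 19.7% and 20.8% with DI. Oas1a took 16.7% and 17.3% with vehicle and 20.8% and 21.2% with DI. The share of Oas1c went from 1.16% and 1.04% to 2.15% and 2.29%. In none of these 3 genes did the groups overlap, nor did they in the shares of Oasl1, Oas1b and Oas1g. The share of Oas3, between 31.3% and 35.0% in the 4 libraries, overlapped between the groups, as did that of Oas2. The shares add up to the whole family in each library, so they restate the unequal fold changes. They were not tested.

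Between genes, levels can be compared only per length, for which the authors' FPKM values were used. With vehicle the mean deposited FPKM was 38.3 for Oas1a, 16.5 for Oas3, 10.3 for Oasl2, 7.04 for Oas2, 6.99 for Oas1g, 2.70 for Oasl1, 1.46 for Oas1c and 1.06 for Oas1b. By these values Oas1a was the highest member per length. Its level is uncertain, since how the reads it shares with Oas1g were divided is not known. Oas2 and Oas1g were neighbours that did not differ beyond the spread of the libraries (5.77 and 8.31 FPKM for Oas2, 6.72 and 7.27 FPKM for Oas1g). The order depends on the gene length. The length behind the deposited FPKM of Oasl2 was 10722 bases, whereas the longest coding transcript of Oasl2 in GENCODE M21 has 3123 bases and the union of its exons 6374 bases. For Oas1a all 3 lengths were 1885 bases. With the longest coding transcript as the length, an alternative chosen after the values were seen, Oasl2 came to 35.3 and passed Oas3 at 29.3, close behind Oas1a at 38.3 (all on the FPKM scale, mean with vehicle). With DI and that length, Oas1a had 21.7, Oas3 14.0 and Oasl2 12.7. The libraries of Oas3 and Oasl2 then overlapped (12.4 and 15.5 against 12.2 and 13.2), with Oas1a above both in either library. At the low end the order of Oasl1 and Oas1c also changed with DI. In deposited FPKM Oas1c (1.35) was above Oasl1 (0.922), and per length of the longest transcript Oasl1 (2.37) was above Oas1c (1.89).

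**Figure D4:**
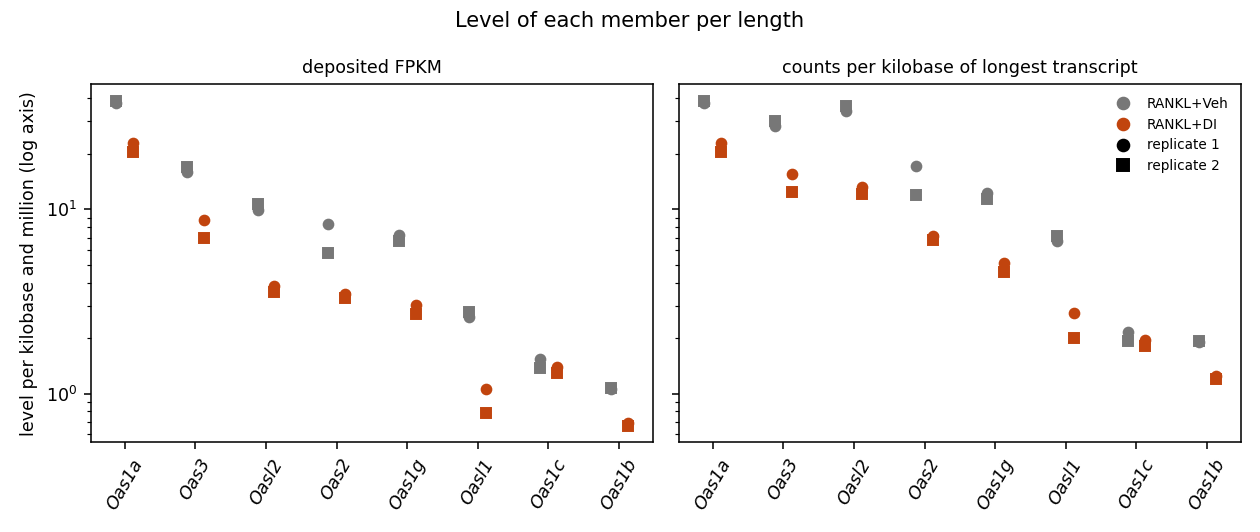
Level of each member per length on the FPKM scale (y axis, log scale) in each library, as deposited FPKM (left) and with the longest coding transcript as the length (right), grey for RANKL+Veh and orange for RANKL+DI. Oas1a is highest in both panels with vehicle, and Oasl2 moves from behind Oas3 to ahead of it.

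Of the genes of the 2-5A pathway outside the family, 3 were tested and were not called by edgeR, where 14.8% of all tested genes were called in either direction. Abce1, best known for recycling ribosomes, stood at 220 and 233 CPM with vehicle and at 203 and 207 CPM with DI (log2 fold change -0.14, edgeR unadjusted p = 0.0205 and adjusted p = 0.0952). With the DESeq2 Wald test its adjusted p was 0.227. Of 16 alternatives 4 called it lower, namely library size only and the fits on FPKM, at log2 fold changes of -0.25 to -0.24. None of these 4 used TMM or similar factors. Pde12, a phosphodiesterase that breaks down 2-5A, had a log2 fold change of 0.02 with a 95% interval of -0.14 to 0.17. Akap7, whose product can also break down 2-5A, had one of 0.07 with an interval of -0.26 to 0.39. The other Oas1 genes of the mouse were hardly detected. Oas1h had 6 and 7 counts with vehicle and 3 and 1 with DI, Oas1d and Oas1e had 1 count each in all 4 libraries together, and Oas1f had none, which allows a level of up to 0.160 to 0.180 CPM in a library. These 4 genes were not tested.

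Of the genes of the interferon signal upstream, Ifnb1, the gene of interferon beta, had no count in any library. The receptor genes Ifnar1 and Ifnar2 had log2 fold changes of -0.0050 (95% interval -0.10 to 0.09) and -0.08 (-0.20 to 0.04). Of the 9 tested genes of the list, 3 were called and all 3 were lower: Stat2 at -0.61 (SE 0.078), Irf9 at -0.46 (SE 0.069) and Irf7 at -1.18 (SE 0.11), with edgeR adjusted p-values from 0.00248 to 0.00980, where 7.70% of all tested genes were called lower. The kinase genes Jak1 (log2 fold change 0.13) and Tyk2 (-0.05) and the factor genes Irf1 (-0.24) and Irf3 (-0.15) were not called. Stat2 went from 82.5 and 90.1 CPM to 59.5 and 53.9 CPM. Irf7, whose mRNA Oasl1 represses at translation, went from 32.5 and 29.9 CPM to 12.6 and 14.8 CPM. The list had a median log2 fold change of -0.15.

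Among 10 genes listed for the sensing of foreign RNA and DNA, 6 were called and all 6 were lower with DI, with a median of -0.54. The list holds more than sensors, for example Adar (called lower) and Mavs (not called). As above, 7.70% of all tested genes were called lower, which is also the share to set beside the counts of the other lists here. Eif2ak2, which encodes PKR, a kinase that senses double-stranded RNA and stops translation, had a log2 fold change of -0.57 (SE 0.082, edgeR adjusted p = 0.00851). Mb21d1, which encodes cGAS, a DNA sensor of the same fold as the synthetases, had one of -0.06 with a 95% interval of -0.28 to 0.16. Other interferon-stimulated families moved in the same direction as the synthetases. All 9 tested genes of the IFIT, Mx, viperin and tetherin list were called lower (median -1.82), as were 6 of 8 tested guanylate-binding protein genes (median -1.16). All these genes were measured in the same libraries, and a difference between the lists was not tested. The core of the interferon element was found in 7 of 8 promoter windows of the IFIT list and in 5 of 5 of the guanylate-binding list, which names 11 genes. It was found in 4 of 6 among the synthetases, in 3 of 7 of the sensing list and in 1 of 10 (Stat2) of the interferon signal list. Among the other 2-5A pathway genes it was found in 0 of 5. Over all genes with a window the share was 3.99%. Whether the core goes with the decrease was not tested.

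**Figure D5:**
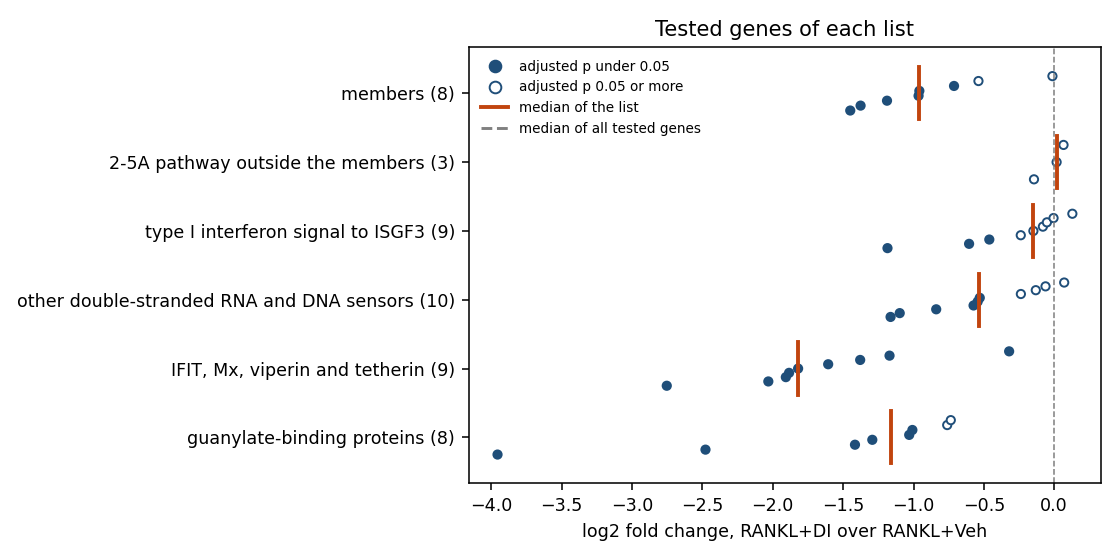
Log2 fold change of RANKL+DI over RANKL+Veh (x axis) of each tested gene in 6 lists, with the number tested in brackets, filled points for an adjusted p under 0.05, an orange bar for the median of the list and a dashed line for the median of all tested genes. The medians run from -1.82 for the IFIT list to 0.02 for the 2-5A pathway genes outside the members, and the leftmost point, Gbp4, rests on 0 and 2 counts with DI, so that its fitted value is no bound.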

How the data were processed

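RNA was measured in BMMs by paired-end sequencing of messenger RNA libraries, with 2 libraries in each group as labelled. The authors deposited raw counts per gene and library, together with FPKM values. A second table adds the authors' KEGG pathway names, and its 8 columns of counts and FPKM, which repeat the first, were not used. The submitters' processing notes name GRCm38 (mm10). The aligner, counter and annotation release are not given in the sources used here. All 8 members had the same start and end in GENCODE M21.

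The counts were fitted with edgeR 4.0.16 under R 4.3.3 (TMM factors, default filter on low counts, quasi-likelihood fit with condition as its only term, Benjamini-Hochberg adjustment over 12590 genes). Standard errors are the absolute log2 change over the root of its F statistic, and 95% intervals use 5.95 degrees of freedom. The floor of 3 counts covers counting error only. Depth, 16085692 to 19403480 counts, limits the low members (Oas1b, Oas1c). Replicates of a group differed by more than sampling noise (chi-square per degree of freedom 7.57 and 7.74). Transcripts were compared with BLAST+ 2.17.0.

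The members and lists were chosen with earlier results of these data known, and so was the promoter motif. The genes named are the members, the listed pathway and interferon genes, the tested neighbours within 200 kb and the 5 genes nearest in profile to Oas3. Some listed genes are not reported here. Alternatives were DESeq2 size factors, upper quartile factors, library size only, other filters on low counts, the DESeq2 1.42.0 Wald test, limma-voom (limma 3.58.1), edgeR's exact test, a replicate block, log2(FPKM + 0.01) and log2(FPKM + 1), and each library left out. Summing Oas1a and Oas1g and the transcript length were added after the data were seen.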

Additional observations from a re-analysis of the deposited data

How the results depend on the processing

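The 6 members that fell, Oasl1, Oasl2, Oas1g, Oas3, Oas2 and Oas1a, were each called lower under all 16 shared alternatives. Oas1b passed only with limma on log2(FPKM + 0.01), at -0.64 (adjusted p = 0.0469), and on log2(FPKM + 1), at -0.30 (adjusted p = 0.0304), which made 7 members, against a range of 0.0304 to 0.550 over its alternatives. With no filter on the log2(FPKM + 0.01) scale its adjusted p was 0.0953. The FPKM values carry no TMM factor. Over all tested genes the fits with the filter called 529 higher and 1674 lower on log2(FPKM + 0.01), and 536 and 1674 on log2(FPKM + 1). Oas1c stayed uncalled, at 0.04 without DI replicate 2 and 0.07 without vehicle replicate 1. The number of all genes called went from 1868 to between 1087 and 1394 when 1 library was left out, with 1120 without vehicle replicate 1 and 1087 without vehicle replicate 2. The library alone in its group is then assumed to vary like the others. Scaling by library size only moved the median over all tested genes to -0.10 on the log2 scale, and gave 548 higher and 1932 lower calls in place of 899 and 969. All 8 members had a log2 fold change under 0 with each scaling. With the replicate number as a block, 1389 genes and 6 members were called. The deviations of same-numbered libraries had a correlation of -0.03 over 12590 genes. Whether these libraries share a mouse, culture or preparation is not given in the sources used here, and the correlation cannot settle it.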

Other observations

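Within 200 kb of a member lay 43 other genes of the table, of which 12 had no count and 17 were tested. By edgeR's quasi-likelihood test 0 of the 17 were called lower and 1 was called higher, Unc119b, at 22.98 and 21.9 CPM with vehicle and 29.9 and 28.5 CPM with DI (log2 fold change 0.38, SE 0.079, edgeR adjusted p = 0.0287). Of all tested genes 14.8% were called and 7.70% were called lower, so a count of 0 among 17 is near that background. At an unadjusted p under 0.05 edgeR had 0 lower and 3 higher, and the DESeq2 Wald test called 0 in either direction. The log2 fold changes of the 17 ran from -0.38 (Ankrd13a, which lies before the Oasl genes) to 0.38 (Rasal1, on 20 to 31 counts), with a median of -0.05.

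Oas3 had the most counts of the family. The 5 genes outside the family whose centred log2 CPM over the 4 libraries lay nearest to its own were Slc7a2, Adrbk2, Gm17484, Pif1 and Socs3, at root mean square distances of 0.0480 to 0.0665. Socs3, an inhibitor of cytokine signalling through STAT3, stood at 13.4 and 12.7 CPM with vehicle and at 7.46 and 5.71 CPM with DI. Slc7a2 and Gm17484 had 20 to 46 counts in a library and did not pass the threshold. With only 4 libraries such a likeness says little more than that the genes differ between the groups by a similar amount.

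The authors' KEGG assignment covered 5 of the 8 members (Oas1a, Oas1b, Oas1g, Oas2 and Oas3), each in the pathways of Herpes simplex infection, Influenza A, Hepatitis C and Measles. Oasl1 and Oasl2, the members with the lowest log2 fold changes, and Oas1c had no pathway, so a count of members through these pathways leaves them out.

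Osteoclast markers (10 genes) summed to 764 and 741 CPM with vehicle and to 731 and 714 CPM with DI. Of the 8 tested, 5 were called lower (Mmp9, Ocstamp, Acp5, Ctsk and Nfatc1), 2 were called higher (Atp6v0d2 and Itgb3) and Dcstamp was not called. Among all 12590 tested genes, 969 (7.70%) were called lower and 899 higher. Mmp9 went from 90.9 and 86.2 CPM to 30.5 and 26.5 CPM. Atp6v0d2, the largest part of the sum, went from 427 and 418 CPM to 509 and 509 CPM, and Calcr had no count. Their part in the changes of the synthetase genes was not tested.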
